A study of Homo sapiens with 3 samples.

Results

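The genes described here are 39 genes of DNA replication and the entry into S phase, chosen as every probe set of the array whose platform annotation names one of them. They were represented by 76 of the 54613 non-control probe sets. Of these 76, 67 passed a filter on low signals (mean log2 value above the median of all probe sets), among them at least 1 probe set of each of the 39 genes, and none of the 76 was also assigned to another gene.

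RNA of SK-Mel-28 cells, an established line of human melanoma, was hybridised to 3 Affymetrix U133 Plus 2.0 arrays, which carry 1 sample each. On 2 arrays, labelled MTf/B1 and MTf/B2 and called siRNA array 1 and siRNA array 2 here, the RNA came from cells stably transfected with pSilencer 3.1-H1 neo carrying a hairpin siRNA insert against melanotransferrin (MTf, gene symbol MELTF). On 1 array the RNA came from cells transfected with a scrambled control in the same vector. In the sample labels the hairpin matches MELTF transcript positions 2048 to 2066, and in the design text 2031 to 2049. Nothing states whether B1 and B2 are separate clones, cultures or preparations, so the p-values measure the spread between these 2 arrays only, which may be technical, and the scrambled array has no replicate.

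Of 10 listed melanocytic markers, 9 had a probe set assigned to that gene alone, and DCT had none. All 9 had signals above the highest bacterial control signal (97.2) on every array. They summed to 263760 and 291265 on the siRNA arrays and 306959 on the scrambled array. Within that sum TYRP1, a melanosomal enzyme, fell (5022 and 12370 on the siRNA arrays against 53204, log2 difference -2.75, adjusted p = 0.0374 by limma). The brightest probe set of TYR, the tyrosinase gene, read 35193 and 37555 against 19988 (0.86, adjusted p = 0.0529). Another of its 3 probe sets, not in the sum, rose (24678 and 22086 against 10796, 1.11, adjusted p = 0.0383), and the last differed by -0.11. Summed marker signals of fibroblasts (815.8 and 1042 against 1158), epithelial cells (2831 and 2552 against 1865), leukocytes (657.7 and 575.9 against 1404) and endothelial cells (409.2 and 703.5 against 489.1) were small beside these. EPCAM (epithelial), PTPRC (leukocyte) and CDH5 (endothelial) stayed below 97.2 on all 3 arrays. Above it on all 3 were 2 of 5 fibroblast, 2 of 5 epithelial, 2 of 4 leukocyte and 1 of 4 endothelial markers. They included the leukocyte marker CD3E (146.6 and 129 on the siRNA arrays against 170.7) and the endothelial marker PECAM1 (284.8 and 459.5 against 228.2). Among the brightest of these markers were KRT18, an epithelial keratin (2483 and 2148.5 on the siRNA arrays against 1308, adjusted p = 0.142), and LCP1, a leukocyte actin-bundling protein (477.8 and 384.7 against 1130, log2 difference -1.31, adjusted p = 0.0804). The fibroblast marker COL1A1 (487.9 and 565.1 against 671.9) was brighter than LCP1 on both siRNA arrays. The part of other cell types in the results was not tested. The brightest MELTF probe set read 18968 and 18974 on the siRNA arrays against 32608 on the scrambled array (log2 difference -0.78, adjusted p = 0.0699 by limma), and the other 3 differed by -0.95, 0.29 and 0.39. Median signals over all probe sets were 174.3, 199.5 and 160.6 on siRNA array 1, siRNA array 2 and the scrambled array, GAPDH controls had 3'/5' ratios of 1.01, 1.01 and 1.03, ACTB controls of 1.77, 1.87 and 2, and the 18S ribosomal RNA controls were 4.01 times the scrambled level on siRNA array 1 and 0.963 times on siRNA array 2.

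Before S phase a cell marks its replication origins with the origin recognition complex, which, with CDC6 and CDT1, loads the ring-shaped MCM helicase onto DNA. At the start of S phase, CDC45 and the GINS complex join the ring to form the active helicase, and polymerases, the sliding clamp PCNA and its loader RFC, nucleases and a ligase copy the strands. Many of these genes are transcribed together late in G1 by E2F factors once cyclin-dependent kinases have inactivated the retinoblastoma protein, and as a group they are widely used as a sign of proliferation in tumours such as melanoma.

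As a group, the replication genes lay higher on the siRNA arrays than on the scrambled array, and higher on siRNA array 2 than on siRNA array 1. With each gene taken at its brightest probe set, both siRNA arrays were above the scrambled array for 26 of the 39 genes (66.7%, against 46.7% of all 12386 genes tested), and both were below it for 2, GINS3 and DUT (5.13%, against 32.5%). With arrays centred on their medians or with quantile normalization, 25 of the 39 were above on both, against 34.1% and 41.3% of all genes. The median log2 difference of the 39 genes was 0.56, against 0.097 over all genes. The values ranged from -0.20 (GINS3, a GINS subunit) to 1.79 (POLE2, a subunit of the leading-strand polymerase epsilon). At its brightest probe set, no member gene was 2-fold or more below the scrambled array on either siRNA array. The same share of all genes is not given here. A dimmer GINS2 probe set past the filter was below by that much on siRNA array 1 (log2 difference -1.35). So was a dim MCM4 probe set on siRNA array 2 by the plain ratio of signals (0.473). Both of these signals were below the highest bacterial control signal.

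Single genes rarely passed the test. By limma with Benjamini-Hochberg adjustment over all 27306 probe sets, 1 of the 39 genes, MCM6, rose (2.56%, against 1.50% of all genes called higher) and 0 fell (against 1.14% called lower), so the share of calls was near the background. At an unadjusted p under 0.05, 10 of 39 were higher (25.6%, against 14.0% of all genes) and 0 were lower (against 8.92%). Counted by probe set, 1 of the 67 past the filter was called higher (against 1.19%) and 0 lower (against 0.905%). The call of MCM6 was lost under quantile normalization (log2 difference 1.40, adjusted p = 0.0523, in a range of 0.0147 to 0.182 over the alternatives run), and under other settings no member or up to 3 member probe sets passed.

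The median member gene lay 0.46 above the median of all genes on the log2 scale, and 0.46 with arrays centred on their medians or 0.38 with quantile normalization, settings that shifted the median of all genes from 0.097 to -0.073 and 0.021. In RNA of a whole culture, a larger share of cells in S phase and more of these transcripts per cell cannot be told apart. A difference between the siRNA and scrambled cells and one between the single scrambled culture and any other cannot be told apart either.

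**Figure D1:**
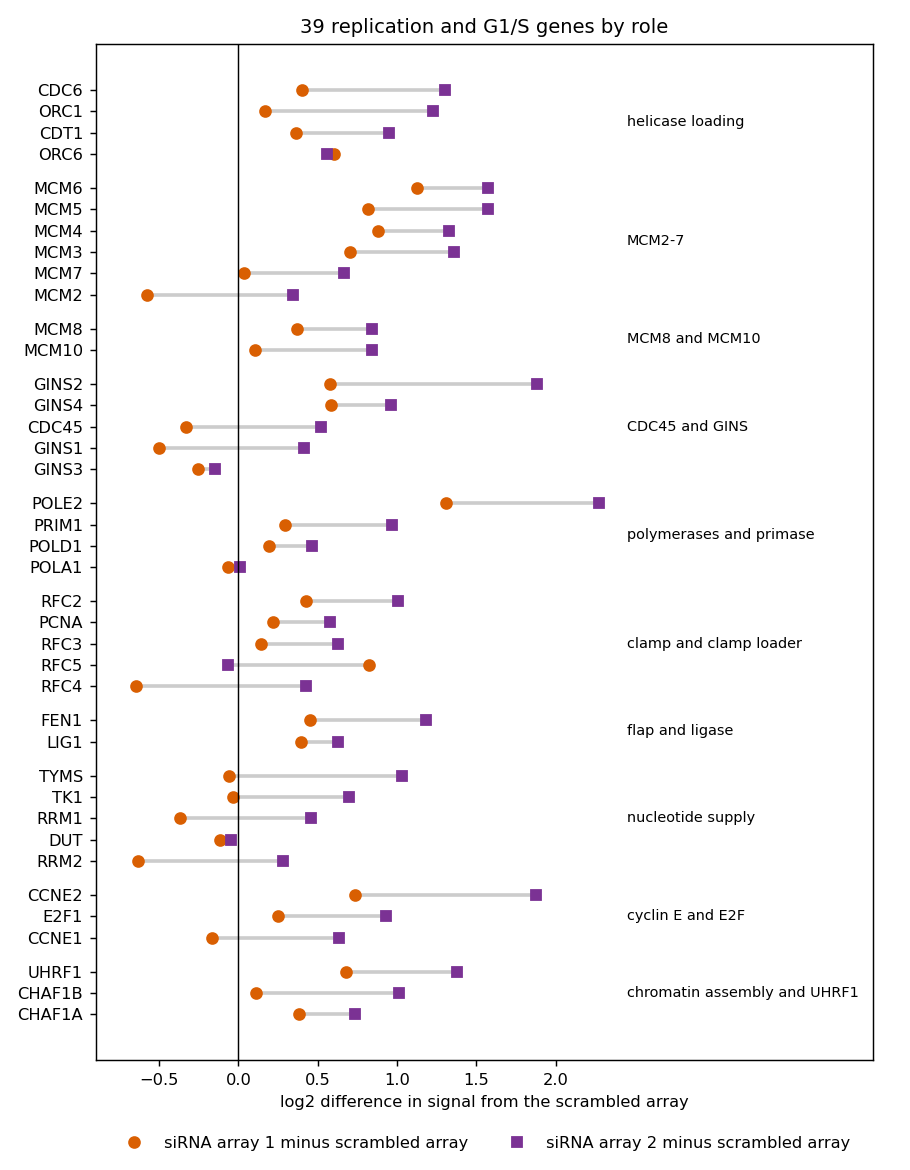
Log2 difference in signal from the scrambled array (x axis) of each of the 39 genes at its brightest probe set, on siRNA array 1 (circles) and siRNA array 2 (squares), grouped by role and joined by a grey line. Squares lie to the right of circles for 37 genes, and 26 genes have both points to the right of 0.

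The log2 differences of the 6 subunits of the MCM2-7 ring ranged from -0.12 for MCM2 to 1.35 for MCM6 at their brightest probe sets. MCM6, the 1 gene called, had signals of 8768.5 and 11948 on the siRNA arrays against 3990 on the scrambled array (log2 difference 1.35 ± 0.25, SE; adjusted p = 0.0459). Both siRNA arrays were thus more than 2-fold above the scrambled one, with log2 differences of 1.13 and 1.57. A dim second MCM6 probe set, with 51.8 and 175.3 against 42, did not pass the filter.

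MCM5 read 3113 and 5288 against 1745 in its brightest probe set, and 1086 and 1658 against 542.3 in the other. The 2 probe sets gave nearly the same log2 difference, 1.20 and 1.24 (adjusted p = 0.109 and 0.101). MCM3 read 3467.5 and 5500 on the siRNA arrays against 2111 on the scrambled array (log2 difference 1.03 ± 0.31, SE; adjusted p = 0.124). In both genes each siRNA array lay above the scrambled array, and neither passed the threshold.

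MCM4 was measured by 5 probe sets past the filter, which did not all show one direction. The brightest read 1680 and 2313 against 891.2 (log2 difference 1.10, adjusted p = 0.0981), and a dimmer one, 387.8 and 638.1 against 135.6, was more than 2-fold higher on both siRNA arrays (1.58, adjusted p = 0.0965). The scrambled signal of that dimmer probe set was below the filter level (a signal of 166.3). It thus passed the filter only through the siRNA arrays, where it was high. The dimmest, at 312.4 and 79.4 against 168, lay above the scrambled array on siRNA array 1 and below it on siRNA array 2. Its 79.4 is below the highest bacterial control signal (97.2). The 4 others lay above the scrambled array on both.

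MCM2 and MCM7 differed less. MCM2 read 1089 and 2100 on the siRNA arrays against 1647 on the scrambled array (log2 difference -0.12 ± 0.39, SE; adjusted p = 0.904), so the siRNA arrays lay on either side of it. MCM7 read 2509 and 3900 against 2443 (0.35 ± 0.31, SE; adjusted p = 0.574), and in its other probe set 1907 and 3384 against 2309. Although these 6 proteins act as 1 ring, the brightest probe sets of MCM3 to MCM6 differed by 1.03 to 1.35 and those of MCM2 and MCM7 by -0.12 to 0.35. Whether the subunits differ from one another was not tested.

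**Figure D2:**
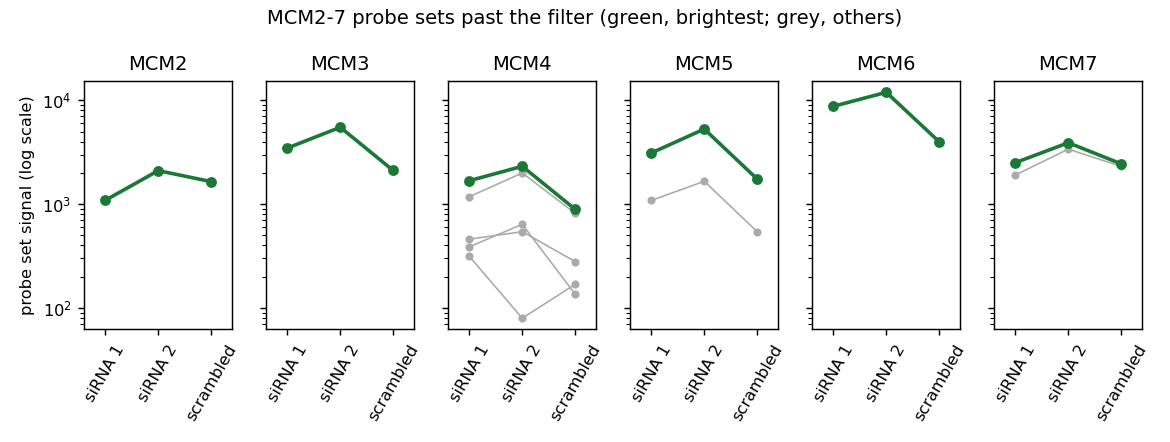
Signals (log scale) of MCM2 to MCM7 on siRNA array 1, siRNA array 2 and the scrambled array, for each probe set past the filter, with the brightest in green and the others in grey; lines only join values of 1 probe set. The scrambled value is the lowest of the 3 in the brightest probe sets of MCM3, MCM4, MCM5, MCM6 and MCM7, but not in that of MCM2.

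The upstream sequences of the genes were searched for the core of E2F sites, TTTNNCGC on either strand, because E2F factors are known activators of this group. RefSeq promoter windows (GRCh38.p14, 250 bases before to 50 after a transcript start) were found for 35 of the 39 genes, in 48 windows. The core was present in 22 of the 48 (45.8%), against 2418 of 35116 windows of all genes (6.89%). A match is a description of the letters and not evidence of binding. The 250 bases before the start are shown for MCM6, the gene called, for MCM3 and POLE2, which lay at least 1 higher on the log2 scale, for E2F1 itself, and for RRM2, which did not lie higher, all 5′ to 3′ on the gene's own strand with E2F cores in capitals. Adjacent or overlapping cores form 1 run of capitals.
MCM6, chr2:135876444-135876693, minus strand: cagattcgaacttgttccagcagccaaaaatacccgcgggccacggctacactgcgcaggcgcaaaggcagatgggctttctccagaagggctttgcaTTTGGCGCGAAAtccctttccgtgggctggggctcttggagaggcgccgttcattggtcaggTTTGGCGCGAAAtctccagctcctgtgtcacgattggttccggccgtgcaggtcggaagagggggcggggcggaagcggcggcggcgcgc
MCM3, chr6:52284743-52284992, minus strand: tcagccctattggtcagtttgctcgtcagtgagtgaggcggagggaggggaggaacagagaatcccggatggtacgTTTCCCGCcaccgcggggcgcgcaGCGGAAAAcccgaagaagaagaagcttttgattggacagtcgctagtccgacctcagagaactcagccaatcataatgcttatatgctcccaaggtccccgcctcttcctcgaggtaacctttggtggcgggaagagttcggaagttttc
POLE2, chr14:49688215-49688464, minus strand: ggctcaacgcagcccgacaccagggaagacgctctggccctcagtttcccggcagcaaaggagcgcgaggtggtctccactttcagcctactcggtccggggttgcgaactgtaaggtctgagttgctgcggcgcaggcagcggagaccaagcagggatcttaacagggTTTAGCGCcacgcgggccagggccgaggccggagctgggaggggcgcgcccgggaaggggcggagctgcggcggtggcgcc
E2F1, chr20:33686386-33686635, minus strand: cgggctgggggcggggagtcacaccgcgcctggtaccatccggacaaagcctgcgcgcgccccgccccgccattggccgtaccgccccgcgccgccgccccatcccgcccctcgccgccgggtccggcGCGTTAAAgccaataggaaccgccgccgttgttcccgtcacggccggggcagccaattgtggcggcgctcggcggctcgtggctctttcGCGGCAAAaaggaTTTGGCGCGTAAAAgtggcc
RRM2, chr2:10122489-10122738, plus strand: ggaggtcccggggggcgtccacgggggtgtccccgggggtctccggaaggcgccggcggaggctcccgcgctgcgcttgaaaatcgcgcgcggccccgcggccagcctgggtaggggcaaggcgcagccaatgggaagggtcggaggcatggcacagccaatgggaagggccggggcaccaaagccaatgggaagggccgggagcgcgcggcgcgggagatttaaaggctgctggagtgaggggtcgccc

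The stretch before MCM6 holds 4 cores, which pair into 2 identical runs, so that each run reads as the core on both strands. That before E2F1 also holds 4, and those before MCM3 and POLE2 hold 2 and 1 (with 1 more in each across the start). Neither of the 2 RRM2 windows holds the letters of this core. The core was present for 16 of the 28 genes with a window and a difference above 0, and for 5 of the 7 with a difference below 0 (MCM2, GINS1, GINS3, POLA1 and DUT). The window shown has 3 copies of CCAAT, the box bound by NF-Y. CCAAT was present in 56.2% of the member windows, against 34.6% of all windows. The core TTTGAA of the cell cycle homology region (CHR), an element known from promoters of mitotic genes, was present in 2 of the 48 member windows (4.17%), against 15.2% of all windows, whereas 23 of 32 windows (71.9%) of a list of 30 G2/M and mitosis genes held it. That list held the E2F core in 4 of its 32 windows (12.5%). It held CCAAT in 24 of them (75%), a larger share than the member windows.

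**Figure D3:**
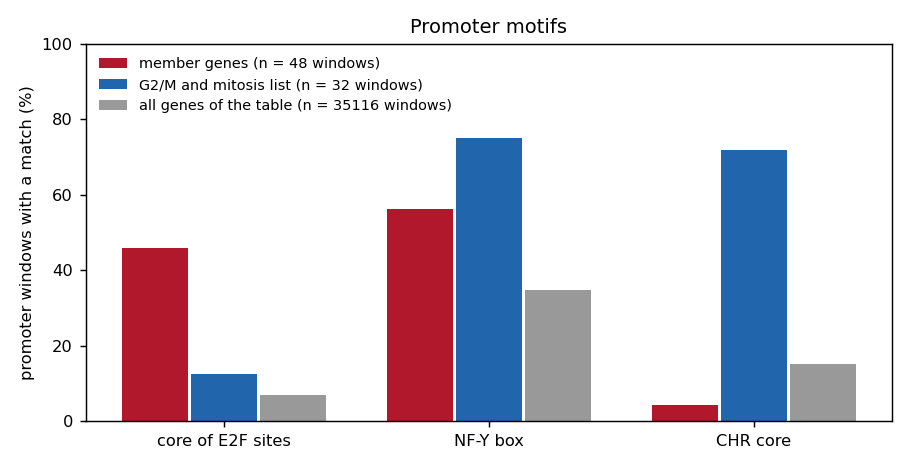
Share of promoter windows of 300 bases (y axis, %) with at least 1 match on either strand to the E2F core, the NF-Y box and the CHR core, for the 48 windows of the replication genes, the 32 windows of the mitotic list and all 35116 windows. The E2F core is at 45.8% in the replication genes and 12.5% in the mitotic list, the NF-Y box at 56.2% and 75%, the CHR core at 4.17% and 71.9%.

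Among the helicase loading genes, all 4 lay above the scrambled array on both siRNA arrays and none passed the threshold. CDC6, which loads the MCM ring, read 513.7 and 999.4 on the siRNA arrays against 377.1 on the scrambled array in its brightest probe set (log2 difference 0.85 ± 0.42, SE; adjusted p = 0.309). Its other probe set differed by more, at 449.5 and 739.9 against 212.9 (1.26 ± 0.39, SE; adjusted p = 0.136). CDT1, the partner of CDC6, read 314.5 and 496.2 against 234.4 (adjusted p = 0.413). ORC1, the largest subunit of the origin recognition complex, read 237.1 and 545.8 against 206.1, with most of the difference on siRNA array 2 (log2 difference 0.17 on siRNA array 1 and 1.23 on siRNA array 2). ORC6, its smallest subunit, read 3868.5 and 3747 against 2534 (0.58 ± 0.23, SE; adjusted p = 0.213), almost the same on both siRNA arrays.

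The factors that turn the loaded ring into a moving helicase did not share one direction. GINS2, a GINS subunit, read 607 and 1569 on the siRNA arrays against 390.8 on the scrambled array in its brightest probe set (log2 difference 1.23 ± 0.51, SE; adjusted p = 0.233). A dimmer GINS2 probe set, at 69.5 and 259 against 249.8, lay below the scrambled array on siRNA array 1 and close to it on siRNA array 2. Its 69.5 is below the highest bacterial control signal (97.2). GINS4 read 319.6 and 429.2 against 197.5 (0.77, adjusted p = 0.319).

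GINS1 read 1231 and 2365 on the siRNA arrays against 1764.5 on the scrambled array, and CDC45 read 856 and 1581 against 1089. For both, siRNA array 1 lay below the scrambled array and siRNA array 2 above it. The difference of CDC45 was 0.094 as deposited and -0.032 with quantile normalization. GINS3 was below the scrambled array on both, at 626.8 and 677.8 against 756.2 in its brightest probe set and 503.6 and 538.8 against 779.4 in the other (adjusted p = 0.760 and 0.370). The subunits of this complex of 4 proteins therefore ranged from -0.20 to 1.23 on the log2 scale. MCM10, which helps to activate the helicase, and MCM8, a related protein with a role in recombination, differed by 0.47 and 0.61 (adjusted p = 0.564 and 0.307).

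Of the polymerase genes, POLE2 had the largest difference of the 39. It read 760.9 and 1527 on the siRNA arrays against 278.9 on the scrambled array (log2 difference 1.79 ± 0.42, SE; adjusted p = 0.0779), more than 2-fold higher on both. It did not pass the threshold as deposited, and passed it with arrays centred on their medians (1.62, adjusted p = 0.0160) and with the probe sets of each gene averaged (adjusted p = 0.0377). Its adjusted p ranged from 0.0160 to 0.226 over the alternatives in which it was measured. PRIM1, the catalytic primase subunit, read 1174 and 1907 against 950.8 (0.63, adjusted p = 0.351). POLD1, the catalytic subunit of polymerase delta, read 606.8 and 740.8 against 525.2 (adjusted p = 0.612). POLA1, the catalytic subunit of polymerase alpha that works with primase, read 1229 and 1298 against 1289, and its difference of -0.029 ± 0.26 (SE) was within the error.

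Besides MCM6, POLE2 was the only member gene at least 2-fold above the scrambled array on both siRNA arrays in its brightest probe set. On the log2(signal + 47.4) scale that is 2 of 39 genes, against 4.19% of all genes, and 0 of 39 were 2-fold lower, against 1.94%. By the plain ratio of signals it is also 2 of 39, against 5.20%.

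PCNA, the sliding clamp that holds polymerases on DNA, read 12914 and 16616 on the siRNA arrays against 11112 on the scrambled array (log2 difference 0.40 ± 0.22, SE; adjusted p = 0.363). The small subunits of its loader differed in direction. RFC2 read 971.3 and 1474 against 709.5, and RFC3 read 2306 and 3244 against 2084, both higher on each siRNA array. RFC4 read 2821 and 5963 against 4435, lower on siRNA array 1 and higher on siRNA array 2.

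RFC5 depended on the probe set. Its brightest read 5493 and 2937 on the siRNA arrays against 3082 on the scrambled array, the only member gene that was above the scrambled array on siRNA array 1 and below it on siRNA array 2. The other 2 RFC5 probe sets, at 1696.5 and 2458 against 1232 and at 1034 and 1516 against 609.3, showed the order common among the members, with siRNA array 2 highest (log2 differences 0.71 and 0.99, adjusted p = 0.242 and 0.149). The flap endonuclease gene FEN1, which trims Okazaki fragments, read 3736 and 6225 against 2715 (0.82 ± 0.32, SE; adjusted p = 0.213), although its second probe set differed by 0.26. LIG1, the ligase that seals those fragments, read 480.7 and 573.6 against 354.8 (0.51, adjusted p = 0.439).

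Of the 5 enzymes of deoxynucleotide supply, none lay above the scrambled array on both siRNA arrays in its brightest probe set, although dimmer probe sets of TK1 and DUT did. Whether they differ from the other members was not tested. RRM2, the regulated subunit of ribonucleotide reductase, read 9081 and 17137 on the siRNA arrays against 14097 on the scrambled array in its brightest probe set, and 9418 and 13666 against 15272.5 in the other (log2 differences -0.18 and -0.43, adjusted p = 0.830 and 0.397). RRM1, the large subunit, read 7378 and 13124 against 9551. TYMS, which makes thymidylate, read 5038 and 10762 against 5247. In all 3 genes siRNA array 1 was the lowest of the 3 arrays in the brightest probe set and siRNA array 2 the highest.

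TK1, the thymidine salvage kinase, read 1215 and 2051 on the siRNA arrays against 1246 on the scrambled array (log2 difference 0.33, adjusted p = 0.649) in its brightest probe set. In the other it read 721.4 and 845.5 against 533.5, above the scrambled array on both (0.51, adjusted p = 0.390). DUT, which removes dUTP, was measured by 3 probe sets past the filter. The brightest read 11855 and 12448 against 12847 and the second 7925 and 9135 against 11035, both lower on each siRNA array, whereas the dimmest read 1052 and 1624 against 813.7 (differences -0.080, -0.37 and 0.65, adjusted p = 0.862, 0.364 and 0.321). With quantile normalization the difference of the brightest DUT probe set turned to 0.041.

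The regulators of the G1/S step included one of the larger differences. CCNE2, a cyclin E that activates CDK2, read 784.5 and 1787 on the siRNA arrays against 453.1 on the scrambled array (log2 difference 1.30 ± 0.46, SE; adjusted p = 0.174), and its other probe set read 264.5 and 594.1 against 252.4. CCNE1, the other cyclin E gene, read 548 and 990.9 against 622.1 (0.23 ± 0.39, SE; adjusted p = 0.794), with siRNA array 1 below the scrambled array. E2F1, the transcription factor, read 458.6 and 766.4 against 379 in its brightest probe set (0.59, adjusted p = 0.439). In its other probe set it read 289.1 and 426.4 against a scrambled signal of 92.9, a level within the range of the bacterial controls, and no fold is given (adjusted p = 0.115).

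UHRF1 and the chromatin assembly genes CHAF1A and CHAF1B all lay above the scrambled array on both siRNA arrays in their brightest probe sets, and none passed the threshold. UHRF1, which reads hemimethylated DNA behind the fork and recruits the maintenance methyltransferase, read 1166 and 1916 on the siRNA arrays against 709.2 on the scrambled array (log2 difference 1.03 ± 0.34, SE; adjusted p = 0.159). CHAF1A, the large subunit of chromatin assembly factor 1, read 1050 and 1350 against 793.5 in its brightest probe set. Of its other 2 past the filter, one read 590.4 and 564.4 against 261.9 (1.01, adjusted p = 0.145) and the other 476.9 and 808.5 against 319.6 (0.87, adjusted p = 0.266). CHAF1B, the middle subunit, read 337.5 and 671.2 against 308.9 (0.56, adjusted p = 0.526).

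Probe sets of one gene mostly pointed the same way. Of the 22 genes with more than 1 probe set past the filter, 3 (MCM4, GINS2 and DUT) had mean differences of both signs. Of the 67 probe sets past the filter, 44 lay above the scrambled array on both siRNA arrays (against 46.4% of all probe sets), 5 below on both and 18 on either side. For 4 genes (ORC6, CDT1, DUT and CHAF1A) the brightest probe set carries the manufacturer's x suffix, which marks probes that can also match other transcripts, so that its signal may include them.

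The 2 siRNA arrays differed from each other across nearly the whole group. For 37 of the 39 genes (94.9%) the signal was higher on siRNA array 2 than on siRNA array 1, against 55.8% of all genes, a comparison that does not use the scrambled array. The exceptions were ORC6 (3747 and 3868.5) and the brightest probe set of RFC5 (2937 and 5493). The ratio of siRNA array 2 to siRNA array 1 had a median of 1.64 over the 39 genes and ranged from 0.535 for RFC5 to 2.58 for GINS2. By probe set, 63 of the 67 past the filter were higher on siRNA array 2, against 52.8% of all. With arrays centred on their medians it was 34 of 39 genes, against 37.4% of all genes. With 1 array for each, this difference has no replicate check and no test.

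The comparison with the scrambled array therefore looked different on each siRNA array. On siRNA array 1, 27 of the 39 genes were above the scrambled array (against 54.7% of all genes), 2 of them at least 2-fold (against 5.56%), and the median of their log2 differences was 0.25. On siRNA array 2, 36 of 39 were above it (against 59.4%), 14 of them at least 2-fold (against 8.72%), and the median was 0.84. These 2-fold counts are on the log2(signal + 47.4) scale. By the plain ratio of signals they were 2 on siRNA array 1 (against 6.91%) and 18 on siRNA array 2 (against 10.6%). As deposited, of the 11 genes with the siRNA arrays on either side of the scrambled array, 10 were lower on siRNA array 1 and higher on siRNA array 2. These were MCM2, CDC45, GINS1, POLA1, RFC4, RRM1, RRM2, TYMS, TK1 and CCNE1. Of all 12386 genes tested, 2576 had the siRNA arrays on either side, and how many of them had this direction was not counted. Of the 2 siRNA arrays, siRNA array 1 had the lower replication signals and the brighter ribosomal controls. The scrambled array, lower still at the median of the replication genes, had ribosomal controls close to those of siRNA array 2. The part of these controls in the differences was not tested.

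**Figure D4:**
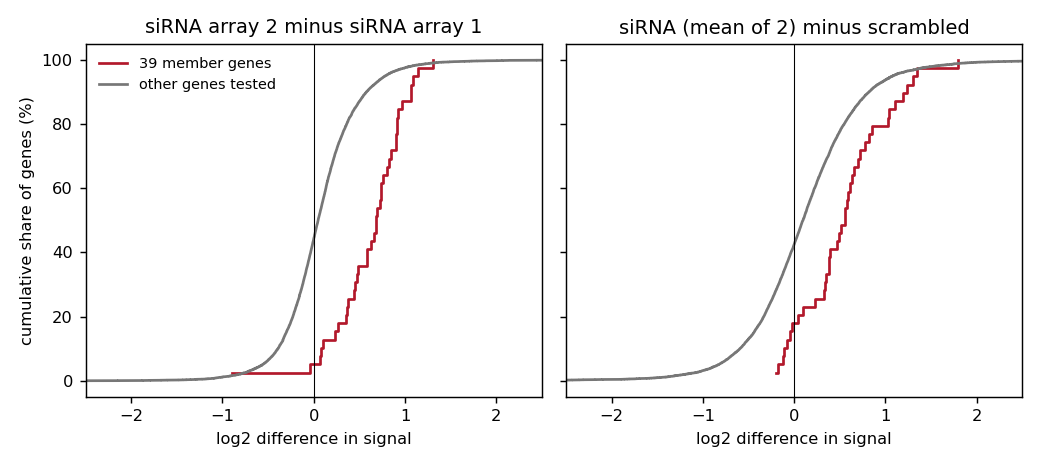
Cumulative share of genes (y axis, %) by log2 difference in signal (x axis) for siRNA array 2 minus siRNA array 1 (left) and for the mean of the siRNA arrays minus the scrambled array (right), for the 39 replication genes (red) and all other genes tested (grey). The red curve lies to the right of the grey one in most of both panels, with medians of 0.69 against 0.047 on the left and 0.56 against 0.096 on the right.

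Other genes of the pathway were set beside the 39, and the difference between the lists was not tested. Of 42 replication factors outside the 39, 38 were measured, with a median log2 difference of 0.17. Of these, 21 lay above and 9 below the scrambled array on both siRNA arrays, against 46.7% and 32.5% of all genes. By limma 0 of them passed the threshold, and 6 were higher and 4 lower at an unadjusted p under 0.05, against 14.0% and 8.92% of all genes. TIMELESS, which protects stalled forks, read 1187 and 2046 on the siRNA arrays against 578.9 on the scrambled array (1.36 ± 0.36, SE; adjusted p = 0.0994). The origin recognition subunits differed in direction, as ORC4 read 5863 and 4677.5 against 2889 (0.85, adjusted p = 0.114) and ORC5 read 5645 and 4788 against 10220 (-0.97, adjusted p = 0.0719). POLE4, an accessory subunit of polymerase epsilon like POLE2, read 14565 and 13570 against 22453.5 (-0.67, adjusted p = 0.105).

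Of 21 G1/S regulators, all measured, 0 passed limma's threshold, and their median was 0.26. At an unadjusted p under 0.05, 3 were higher and 2 lower, against 14.0% and 8.92% of all genes. The 2 E2F dimerisation partners differed in direction. TFDP1 read 2038 and 3600 on the siRNA arrays against 1300 on the scrambled array (1.03, adjusted p = 0.165), and TFDP2 read 2039 and 2595 against 5028 (-1.11, adjusted p = 0.0733). RBL2, a pocket protein related to the retinoblastoma protein, read 3220 and 3153.5 against 1988.5 (adjusted p = 0.171), and CKS1B, a small partner of cyclin-dependent kinases, read 8430 and 8709 against 13123 (adjusted p = 0.142).

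The 13 measured of 14 further nucleotide synthesis genes had a median of 0.048, with 0 past limma's threshold and 0 higher and 1 lower at an unadjusted p under 0.05. That was ATIC, a purine synthesis enzyme, at 17082 and 18145 on the siRNA arrays against 26109 on the scrambled array (-0.57, adjusted p = 0.139). GART, an earlier enzyme of the same pathway, read 4635 and 4670 against 6244. DCTPP1, a pyrophosphatase of dCTP, read 5400 and 5939 against 4311, and SAMHD1, which degrades deoxynucleotides, read 703.5 and 526.6 against 415.5.

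The mitotic list lay apart from the replication genes relative to the scrambled array, but shared their difference between the siRNA arrays. All 30 of its genes were higher on siRNA array 2 than on siRNA array 1, against 55.8% of all genes. The median difference of the list was 0.72, against 0.69 for the 39 replication genes. Relative to the scrambled array its median was -0.69 on siRNA array 1 and 0.039 on siRNA array 2, so that the replication median lay 0.93 and 0.80 above the mitotic median on the 2 arrays. With quantile normalization these gaps were 0.90 and 0.69. None of the 30 lay above the scrambled array on both siRNA arrays, against 46.7% of all genes, and 15 lay below it on both, against 32.5%. By limma 0 passed the threshold, against 1.50% of all genes called higher and 1.14% lower. At an unadjusted p under 0.05, 0 were higher and 4 lower, against 14.0% and 8.92% of all genes. CDK1, the kinase that drives entry into mitosis, read 3139 and 5520 against 9164 in its brightest probe set (-1.13, adjusted p = 0.122). Its other probe sets past the filter differed by less, -0.41 and -0.46, and on siRNA array 2 alone by -0.042 and -0.085. AURKB, another mitotic kinase gene, read 1036 and 1247 against 1874 (-0.70, adjusted p = 0.209). The difference between these lists was not tested.

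**Figure D5:**
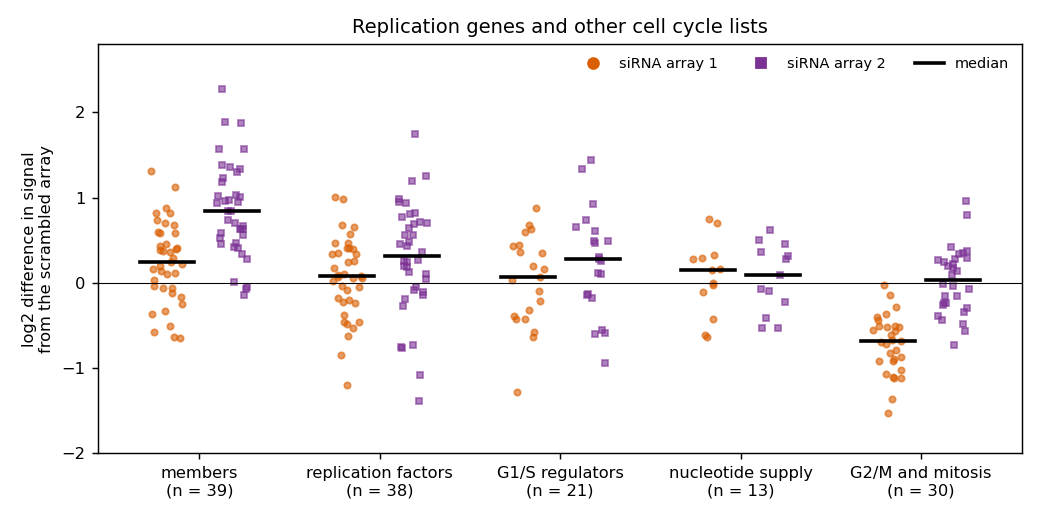
Log2 difference in signal from the scrambled array (y axis) of each measured gene of the 39 replication genes and of 4 other lists, on siRNA array 1 (circles) and siRNA array 2 (squares), with black bars at the medians. The replication genes have medians of 0.25 and 0.84, the mitotic list -0.69 and 0.039.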

How the data were processed

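Gene expression was measured on 3 arrays. The deposited table gives linear intensities, 1 per probe set and array, made with GCOS 1.3 per the submitters' processing notes. Their mean after trimming 2% at each end was 1000.12 to 1000.14, so a common scaling had been applied to them. Its other settings are not stated in the labels. There were 0 value columns of other samples. The number of arrays limits the precision.

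After 62 control probe sets were left out, signals were analysed as log2(signal + 47.4), the pseudocount being the 25th percentile, which understates changes of dim probe sets. Probe sets above the median mean (7.739) were kept. Of 54613 probe sets the platform annotation gave 1 gene for 41091, several for 1801 and none for 11721. A gene was represented by its brightest probe set. The test of siRNA against scrambled used limma 3.58.1 under R 4.3.3 (lmFit; eBayes with trend on mean signal), two-sided, with Benjamini-Hochberg adjustment over all probe sets at 0.05. There is 1 residual degree of freedom, from the siRNA arrays, the moderation added 6.36, and the lone scrambled sample is taken to vary equally. The procedure was tested on simulated data. Motifs were counted with Python 3.11.15.

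The members, lists and motifs were chosen with earlier results of these data known, so no list was tested as a set. Named genes were all 39 members, with further genes of each list by the smaller of their 2 differences. Which members' signals are printed was partly decided after their values were seen. Alternatives were quantile normalization, centring, pseudocounts of 16 and 200, no filter, a filter at the 75th percentile, no trend, robust moderation, averaged probe sets and leaving out each siRNA array.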

Additional observations from a re-analysis of the deposited data

How the results depend on the processing

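The test results rested on the settings. The count of member probe sets called higher, 1 as deposited, was 3 with arrays centred on their medians and 0 with quantile normalization, a pseudocount of 200, no filter, the 75th percentile filter or no trend. The count of member genes was 2 with centring or averaged probe sets and 0 in the same other 5 settings; the cause was not tested. For MCM6 the adjusted p ranged from 0.0147 (centring) to 0.182 (no trend). The number of genes 2-fold higher on both siRNA arrays was 1 under the 75th percentile filter, past which 26 of the genes lay. It ranged from 2 to 14 with 1 siRNA array left out, where it rests on a single array: 14 without siRNA array 1. Leaving out an array leaves no residual degree of freedom, so no test was made there. The median of the 39 genes was 0.25 without siRNA array 2 and 0.84 without siRNA array 1, and 0.39 to 0.58 under the other settings. With 1 siRNA array left out, the sign turned for the 11 genes whose siRNA arrays lay on either side of the scrambled array. With both kept, it turned for 3 genes: CDC45 (-0.032 with quantile normalization, -0.076 with centring), RRM1 (-0.13 with centring) and DUT (0.041 with quantile normalization, 0.067 with averaged probe sets). No paired analysis was possible because there is 1 scrambled array, so the groups share fewer than 2 replicate numbers.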
